A study of Mus musculus with 9 samples.

Results

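The genes of mitosis and of the G2/M transition were followed in mouse knee chondrocytes kept on a stiff or a soft extracellular matrix (ECM), or in a culture labelled normal. The group was listed by symbol and holds 39 genes. Each gene was read from its brightest probe (the highest mean log2 intensity over the 9 samples), and the probe had to lie above 0 in every sample. In this set 37 genes had a probe and 36 passed, against 18295 of 19084 genes on the whole array. Ccnb1 and Cdc20 were not analysed here. The probe of Bub1b, a checkpoint protein, did not pass. It read between 245 and 331 in normal 2, normal 3 and soft ECM 1, and between -4.07 and 1.96 in the other 6 samples.

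The cells were primary articular chondrocytes of newborn Kunming mice, freed with collagenase and grown in monolayer. All 9 samples share this source. Polyacrylamide gels of 500 Pa (soft ECM) and of 100 kPa (stiff ECM) carried 3 samples each. What the 3 normal samples were grown on is stated neither in the labels nor in the methods. The labels give 24 h of culture for every sample, while a legend of the study gives a longer time for the gels. RNA of each sample was read on single-colour arrays (Phalanx Mouse OneArray). No source says that the 3 samples of a group were separate cultures or litters. The p-values therefore measure only the spread between these samples, which may be technical.

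Cells that have copied their DNA pass through G2 into mitosis when cyclin A2 and the B cyclins activate Cdk1, helped by Polo-like and Aurora kinases. Foxm1 and the B-Myb/MuvB complex switch the genes of this phase on together, mostly through a short promoter element called CHR, and the DREAM complex keeps them off in resting cells. The protein products build the spindle, hold the checkpoint until every kinetochore is attached, separate the chromatids and cut the cell apart. Chondrocytes divide in the growth plate and in monolayer culture, and hardly at all in mature articular cartilage. In bulk RNA, fewer cells in cycle and less of these RNAs in each cycling cell cannot be told apart.

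The values are linear intensities without a unit, so levels were compared between samples for 1 probe at a time and never between genes. The median intensity over all probes was 124 to 179 in the normal samples, 137 to 150.05 on soft ECM and 166 to 175 on stiff ECM. The deposited values of the stiff samples thus lay above those of the soft samples over the array as a whole, by 0.18 on the log2 scale for the median probe. For this reason each gene was also set against the 200 tested probes nearest to it in mean intensity. Olfactory receptor genes, used by sensory cells of the nose, gave the level of genes taken as silent. Of the 36 genes, 16 lay below the 95th percentile of 465 such probes (an intensity of 309), and 4 of these 16 belong to the genes called below (Foxm1, Melk, Ttk and Nusap1).

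The label of the cells was checked with marker lists. The 12 chondrocyte markers summed to 15654 to 17687 in the normal samples, 7382 to 8697 on soft ECM and 8382 to 9403 on stiff ECM, and Matn1, Matn3, Cnmd and Snorc lay below the olfactory level. Against normal, 3 of the 12 were called lower on stiff ECM (5.14% of all probes were) and 2 on soft ECM (3.21%). On either gel 0 were called higher (4.8% of all probes on stiff ECM and 0.493% on soft ECM). Col2a1, the main cartilage collagen, averaged 9673 in the normal samples and 3889 on stiff ECM. The 10 skeletal muscle markers were all above the olfactory level. They summed to 165384 to 200986 in the normal samples, 163258 to 181539 on soft ECM and 98365 to 121612 on stiff ECM. Of the 10, 9 were called lower on stiff ECM than in the normal samples (against 5.14% of all probes). Muscle RNA was therefore lowest in the group in which most mitosis genes were highest. Of 8 fibroblast markers, 4 were called lower on stiff ECM and 3 on soft ECM than in the normal samples (against 5.14% and 3.21% of all probes). Of 7 macrophage markers, 1 (Itgam) was called higher on stiff ECM than in either other group. Over all probes 4.8% were called higher against normal and 1.35% against soft ECM. All 6 endothelial markers lay below the olfactory level. The part of these cells in the results on the mitosis genes was not tested.

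Most of the mitosis genes were highest on stiff ECM. The stiff ECM had the highest mean for 30 of the 36 genes (83.3%), compared with 51.2% of all tested probes and 50% of the probes of like intensity. The normal group was highest for 4 genes and the soft ECM for 2. The order stiff, soft, normal was found for 18 genes, among them Plk1, Foxm1, Aurkb and Top2a. The order stiff, normal, soft was found for 12, among them Mki67, Cenpe, Anln and Hmmr. Nuf2 and Ccna2 were highest on soft ECM. Ccnb2, Ube2c, Cenpa and Racgap1 were highest in the normal samples. These orders describe the means and were not tested.

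**Figure D1:**
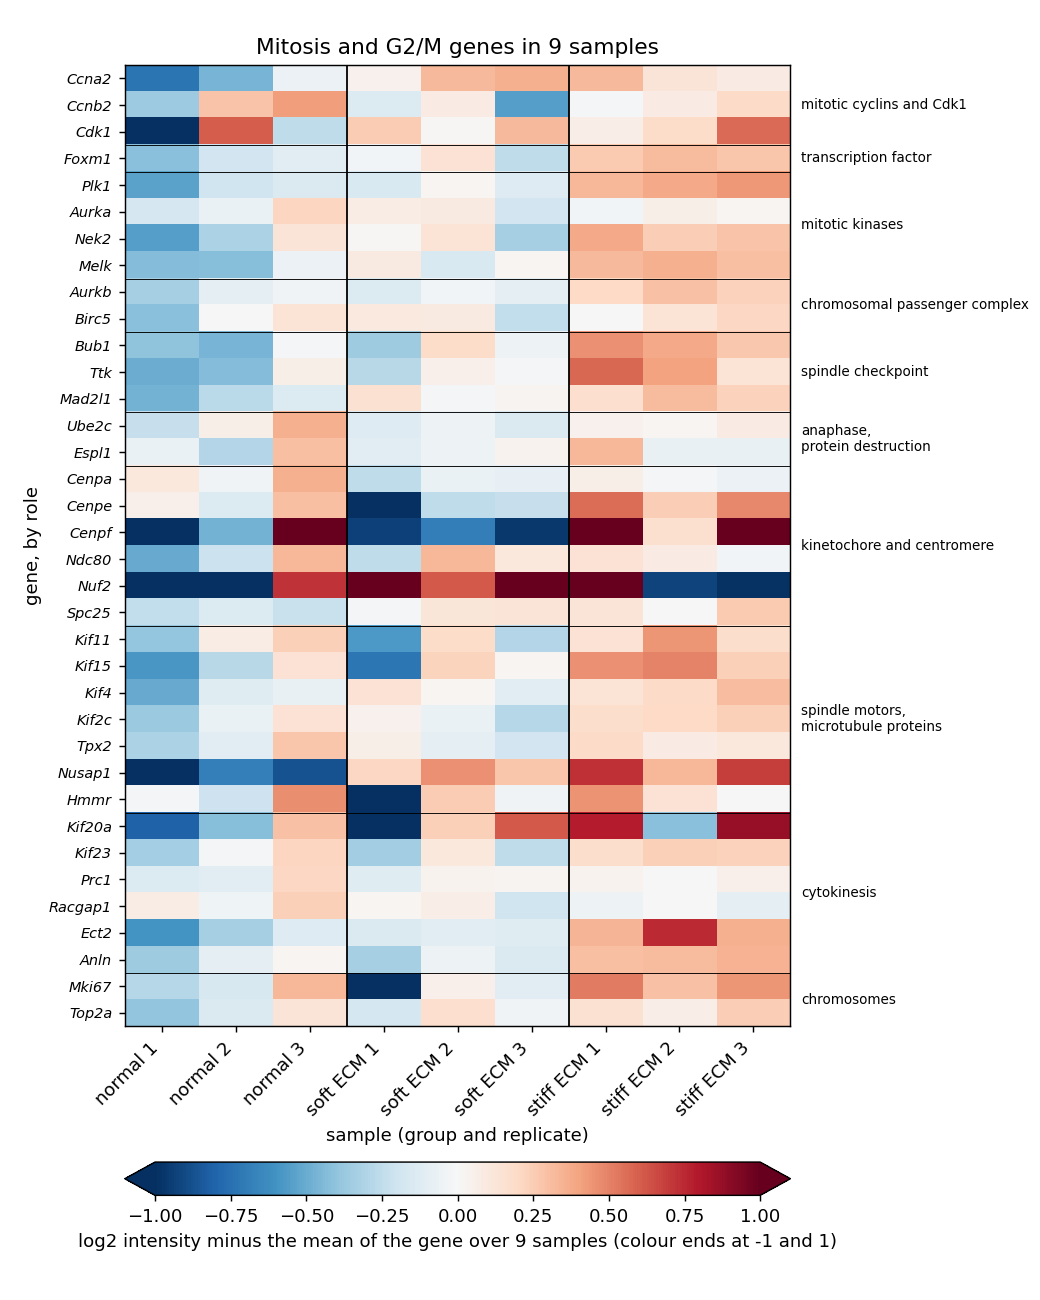
Log2 intensity of the 36 genes (rows, grouped by role) in the 9 samples (columns), as the difference from the mean of each gene over the 9 samples. Red is above and blue below that mean, and the colour ends at -1 and 1. The 3 stiff ECM columns are mostly red, and normal 1 is mostly blue (it was the lowest of the 9 samples for 22 genes).

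The samples of a group did not behave alike. The median deviation of the 36 genes from their own means was -0.40, -0.15 and 0.14 in normal 1, 2 and 3. It was -0.13, 0.06 and -0.10 in the soft samples and 0.23, 0.19 and 0.23 in the stiff samples, so the stiff samples lay closest together and normal 3 reached towards them. Normal 1 was the lowest of its group for 29 of the 36 genes and for 69.3% of all probes, and normal 3 was the highest for 33 genes and for 77.5% of all probes. Normal 1 was thus the lowest and normal 3 the highest of the group for most probes of the array too. Soft ECM 1 was the lowest of its group for 21 genes (30.6% of all probes) and soft ECM 2 the highest for 23 (20.5% of all probes). After subtraction of the probes of like intensity, the medians were -0.25, -0.18 and -0.07 in the normal samples. They were then -0.06, 0.21 and -0.06 on soft ECM and 0.12, 0.08 and 0.19 on stiff ECM. Normal 1 and 2 remained the lowest, and soft ECM 2 became the highest. Normal 3 (-0.066) was nearly level with soft ECM 3 (-0.063) and soft ECM 1 (-0.062), given a standard deviation between replicates of 0.11. The median standard deviation of the genes on the log2 scale was 0.27 in the normal group, 0.17 on soft ECM and 0.09 on stiff ECM. In the same order it was 0.25, 0.17 and 0.16 for all probes, and 0.23, 0.15 and 0.14 for the probes of like intensity.

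**Figure D2:**
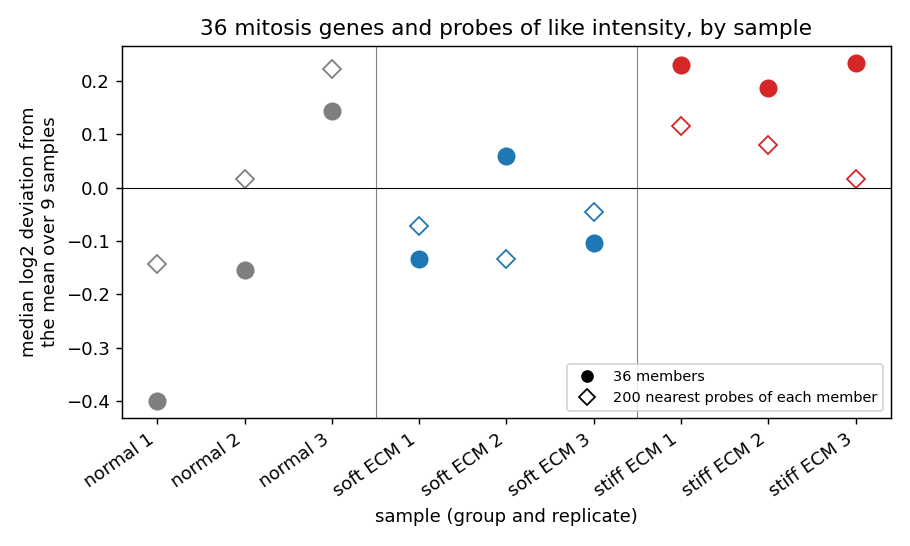
Median log2 deviation from the mean over 9 samples (vertical axis) of the 36 mitosis genes (filled circles) and of the 200 probes nearest to each in intensity (open diamonds), by sample. The circles of the 3 stiff ECM samples lie at 0.23, 0.19 and 0.23, above their diamonds, and those of the 3 normal samples lie below theirs.

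The comparison of the stiff ECM with the normal samples asks how the genes differed from the culture without a stated gel. Over all tested probes, 4.8% were called higher (limma, Benjamini-Hochberg over 24942 probes, adjusted p under 0.05) and 5.14% lower, 9.94% in all. Among the 36 mitosis genes, 11 were called higher (30.6%) and 0 lower, and 5.97% of the probes of like intensity were called higher. The 11 genes were Nusap1, Plk1, Ect2, Mad2l1, Bub1, Anln, Foxm1, Aurkb, Melk, Ccna2 and Ttk, with 1.31-fold (Aurkb) to 2.80-fold (Nusap1) higher intensities. At an unadjusted p under 0.05, 15 genes were higher (17.1% of all probes) and 0 lower (12.9% of all probes, 30% in either direction). The groups did not overlap for 16 genes, all higher on stiff ECM (44.4%, against 19.3% of all probes that were higher and 14.6% that were lower). The log2 change was above 0 for 32 genes (88.9%, against 57.7% of all probes). The median log2 fold change of the 36 genes was 0.42, that of all probes 0.09, and the genes lay 0.34 above the probes of like intensity (29 of 36 above). By role, the calls covered 3 of 3 spindle checkpoint genes, 2 of 4 mitotic kinases, 2 of 6 cytokinesis genes, 1 of 3 genes of the cyclins and Cdk1, 1 of 2 passenger complex genes, 1 of 7 spindle motor and microtubule genes and Foxm1. They covered 0 of 6 kinetochore genes, 0 of 2 anaphase genes and 0 of 2 chromosome genes. The count depended on single samples. It was 4, 3 and 14 without normal 1, 2 and 3, 6, 5 and 4 without soft ECM 1, 2 and 3, and 4, 1 and 3 without stiff ECM 1, 2 and 3. The number called higher over all probes, 1197 with all samples, moved too. It was 716, 360 and 3138 without normal 1, 2 and 3. Leaving out soft ECM 1, 2 and 3 gave 860, 733 and 721, and leaving out stiff ECM 1, 2 and 3 gave 496, 254 and 259. No call changed direction in any of these fits.

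**Figure D3:**
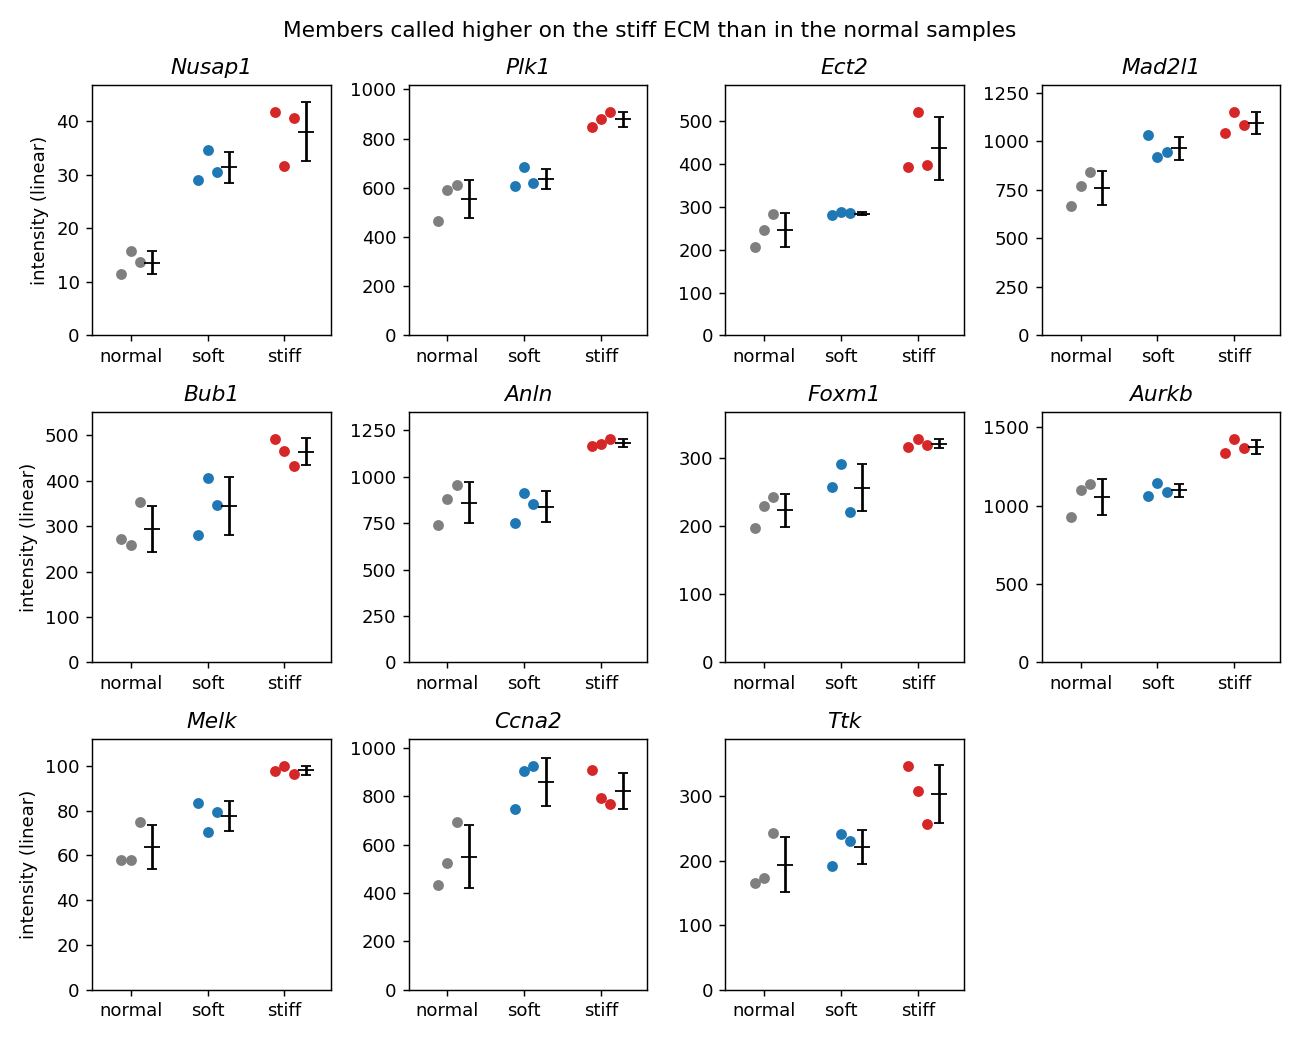
Linear intensity (vertical axis, from 0) of the 11 genes called higher on stiff ECM than in the normal samples, 1 panel per gene, by group. Coloured points are the 3 samples, and the black mark and bar are the mean and the standard deviation. No stiff ECM point lies as low as any normal point in these panels, whereas the soft ECM points of Ccna2 reach above the stiff ones.

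The spindle checkpoint, which delays anaphase until chromosomes are attached, was called in all 3 of its tested genes. Bub1b was not tested, as its probe read 0 or less in all 3 stiff ECM samples, in normal 1 and in soft ECM 2. Mad2l1, the inhibitor of the anaphase-promoting complex, read 668, 768 and 842 in the normal samples, 1031, 919 and 943 on soft ECM and 1042, 1152 and 1085 on stiff ECM. Both gel groups lay above all normal samples, and every stiff sample lay above every soft sample. The rise from normal to stiff was 0.53 ± 0.11 on the log2 scale (standard error, n = 3 per group, limma adjusted p = 0.0200, 0.0040 to 0.13 over the alternative settings). Bub1, a kinase at kinetochores, read 271, 259 and 352 in the normal samples, 279.6, 406 and 346 on soft ECM and 491, 466 and 432 on stiff ECM. The stiff samples stood above the other 6, which overlapped. Its log2 change from normal to stiff was 0.67 ± 0.17 (limma adjusted p = 0.0338, 0.014 to 0.16 over the alternatives, with the call kept in 8 of 20). Ttk, the kinase that starts checkpoint signalling, read 165, 173 and 244, then 192, 242 and 231, then 347, 309 and 257 in the same order of groups. Stiff ECM 3 lay only just above normal 3. The change was 0.66 ± 0.18 (limma adjusted p = 0.0477, 0.015 to 0.23 over the alternatives, of which 6 of 20 kept the call), and a second Ttk probe gave 0.68 (limma adjusted p = 0.0293). The dimmer probe of Bub1, at 13.4 to 41.7, gave 0.70 and was not called (limma adjusted p = 0.217).

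Of the 4 genes listed as mitotic kinases (Plk1, Aurka, Nek2 and Melk), Plk1 and Melk were called. Plk1, the Polo-like kinase of centrosomes, kinetochores and the division site, read 465, 589 and 610.0 in the normal samples, 607, 683 and 619 on soft ECM and 849, 879 and 909 on stiff ECM. The stiff samples lay well above the other 6, and normal and soft overlapped. Its log2 change from normal to stiff was 0.67 ± 0.12 (limma adjusted p = 0.0124, 0.0042 to 0.12 over the alternatives). Melk, a kinase abundant in dividing progenitor cells, read 57.9, 58.1 and 74.9 in the normal samples, 83.2, 70.2 and 79.4 on soft ECM and 97.7, 99.9 and 96.3 on stiff ECM. The 3 groups stepped upwards, with an overlap of normal and soft, and the change from normal to stiff was 0.63 ± 0.18 (limma adjusted p = 0.0463, 0.018 to 0.16 over the alternatives, with the call kept in 5 of 19). Aurka, the Aurora kinase of the spindle poles, averaged 487 ± 69.3 (SD), 484 ± 51.1 and 492 ± 15.6 in normal, soft and stiff, and was not called (limma adjusted p = 0.924). Nek2, which splits the centrosomes, averaged 57.3 ± 14.1, 64.5 ± 10.4 and 82.3 ± 3.69, with no overlap of stiff and normal but no call (limma adjusted p = 0.123).

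Aurkb, the kinase of the chromosomal passenger complex, read 926, 1097 and 1139 in the normal samples, 1059, 1144 and 1088 on soft ECM and 1338, 1425 and 1367 on stiff ECM. Normal and soft samples overlapped, and the stiff samples stood above them, with a log2 change from normal of 0.39 ± 0.11 (limma adjusted p = 0.0424, 0.010 to 0.17 over the alternatives, with the call kept in 6 of 20). Birc5 (survivin), another subunit, averaged 1002 ± 193, 1045 ± 137 and 1142 ± 80.6 in normal, soft and stiff, and its groups overlapped. Foxm1, the transcription factor of this gene programme, read 196, 229.6 and 243, then 258, 290.1 and 221, then 315, 327 and 319 in normal, soft and stiff. Only the stiff samples were clear of the others, by 0.53 ± 0.14 over normal on the log2 scale (limma adjusted p = 0.0424, 0.029 to 0.16 over the alternatives, with the call kept in 6 of 20).

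Of the cyclins and Cdk1, only Ccna2 was called. Ccna2 (cyclin A2), which serves both S phase and G2, read 435, 523 and 694 in the normal samples, 746, 905 and 925 on soft ECM and 907, 791 and 766 on stiff ECM. Both gels exceeded the normal samples, and the gels overlapped each other. The log2 change from normal was 0.60 ± 0.17 to stiff (limma adjusted p = 0.0476, 0.0072 to 0.24 over the alternatives, of which 6 of 20 kept the call) and 0.66 ± 0.17 to soft (limma adjusted p = 0.0571). Ccnb2 (cyclin B2), the partner of Cdk1 at mitotic entry, read 232, 366 and 401, then 273, 318 and 205, then 297, 317 and 342 in normal, soft and stiff. Its groups overlapped in every comparison. Cdk1, the kinase itself, was dim and read 13.4, 69.2 and 38.0 in the normal samples, 54.1, 45.8 and 56.9 on soft ECM and 47.4, 51.4 and 67.4 on stiff ECM. The normal samples spanned all the others, and 52.0% of the olfactory receptor probes were dimmer than its probe. Its log2 changes from normal, 0.74 ± 0.47 to stiff (limma adjusted p = 0.313) and 0.67 ± 0.47 to soft (limma adjusted p = 0.469), were close to those of Ccna2 in size but had wide errors.

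Among the genes of cytokinesis, Ect2 and Anln were called. Ect2, the exchange factor that activates RhoA at the division site, read 206, 247 and 284 in the normal samples, 281, 287 and 285 on soft ECM and 393, 522 and 397 on stiff ECM. The stiff samples exceeded all others, and stiff ECM 2 was the highest. Its log2 change from normal was 0.83 ± 0.16 (limma adjusted p = 0.0134, 0.0036 to 0.16 over the alternatives). The Ect2 probe lay close to the olfactory level, with 94.8% of the olfactory receptor probes dimmer. Anln (anillin), the scaffold of the contractile ring, read 739.7, 881 and 957, then 749.7, 913 and 853, then 1165, 1174 and 1202 in normal, soft and stiff. Normal and soft samples lay in the same range, and the stiff samples 0.47 ± 0.12 above normal (limma adjusted p = 0.0386, 0.010 to 0.16 over the alternatives, with the call kept in 7 of 20). The proteins of the central spindle that recruit Ect2 were not called. Racgap1 averaged 707 ± 69.3, 648 ± 61.8 and 640.5 ± 21.2 in normal, soft and stiff. Its partner Kif23 averaged 343 ± 65.3, 315 ± 53.3 and 406 ± 9.29, and Prc1, which bundles the microtubules between them, 2464 ± 337, 2439.9 ± 152 and 2522 ± 38.3. The normal and stiff samples of these 3 genes overlapped. Every stiff sample of Kif23 lay above every soft sample, with a log2 difference of 0.38 ± 0.17 (limma adjusted p = 0.216, unadjusted 0.0427). Kif20a, a kinesin of the same structure, was dim (9.02 to 36.4) and was not called.

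Nusap1, which binds and bundles spindle microtubules next to chromosomes, had the largest log2 change of the called genes. It read 11.4, 15.7 and 13.7 in the normal samples, 29.1, 34.6 and 30.4 on soft ECM and 41.7, 31.7 and 40.7 on stiff ECM. The normal samples lay below all gel samples, and the gels overlapped. The log2 change from normal was 1.49 ± 0.25 to stiff (limma adjusted p = 0.00887, 0.0048 to 0.088 over the alternatives) and 1.22 ± 0.25 to soft (limma adjusted p = 0.0284, 0.019 to 0.16 over the alternatives). Only 39.4% of the olfactory receptor probes were dimmer, so the signal was within the range of silent genes, and the probes nearest to it in intensity had a median change of 0.68 from normal to stiff. With quantile normalization the change to stiff was 0.86 and was not called (limma adjusted p = 0.0647). No spindle motor was called. Kif15, a kinesin that keeps spindle poles apart, read 111, 136 and 183, then 100.2, 192 and 168, then 227, 232 and 195 in normal, soft and stiff. The stiff samples were above all the others, without a call (limma adjusted p = 0.125 against normal and 0.233 against soft). Kif4, a kinesin of chromosome arms, averaged 367 ± 56.9, 434 ± 38.4 and 495 ± 30.5, with stiff above normal in all samples (limma adjusted p = 0.0692). Kif11, Kif2c, Tpx2 and Hmmr had log2 changes of 0.28, 0.30, 0.18 and 0.11 from normal to stiff and were not called.

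No kinetochore gene was called against normal. Spc25, a subunit of the Ndc80 complex that grips microtubules, came nearest, with 942, 1016 and 957 in the normal samples, 1101, 1215 and 1223 on soft ECM and 1223, 1113 and 1337 on stiff ECM. Both gels exceeded all normal samples (log2 change to stiff 0.33 ± 0.10, limma adjusted p = 0.0679, and to soft 0.28 ± 0.10, limma adjusted p = 0.167). Its partner Ndc80 averaged 178 ± 54.2, 200.2 ± 40.0 and 199 ± 11.8, with overlapping groups. Cenpa, the histone variant that marks centromeres, averaged 2492 ± 347 in the normal samples, 2053 ± 144 on soft ECM and 2234 ± 93.0 on stiff ECM. Of the genes of protein destruction, Ube2c read 420.5, 513 and 630.1 in the normal samples, 449, 474 and 444 on soft ECM and 507, 498 and 521 on stiff ECM. It encodes the ubiquitin-conjugating enzyme of the anaphase-promoting complex, and its normal samples spanned both gels. Espl1 (separase), which cuts cohesin, averaged 190.3 ± 40.4, 185 ± 9.95 and 200.3 ± 33.6.

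**Figure D4:**
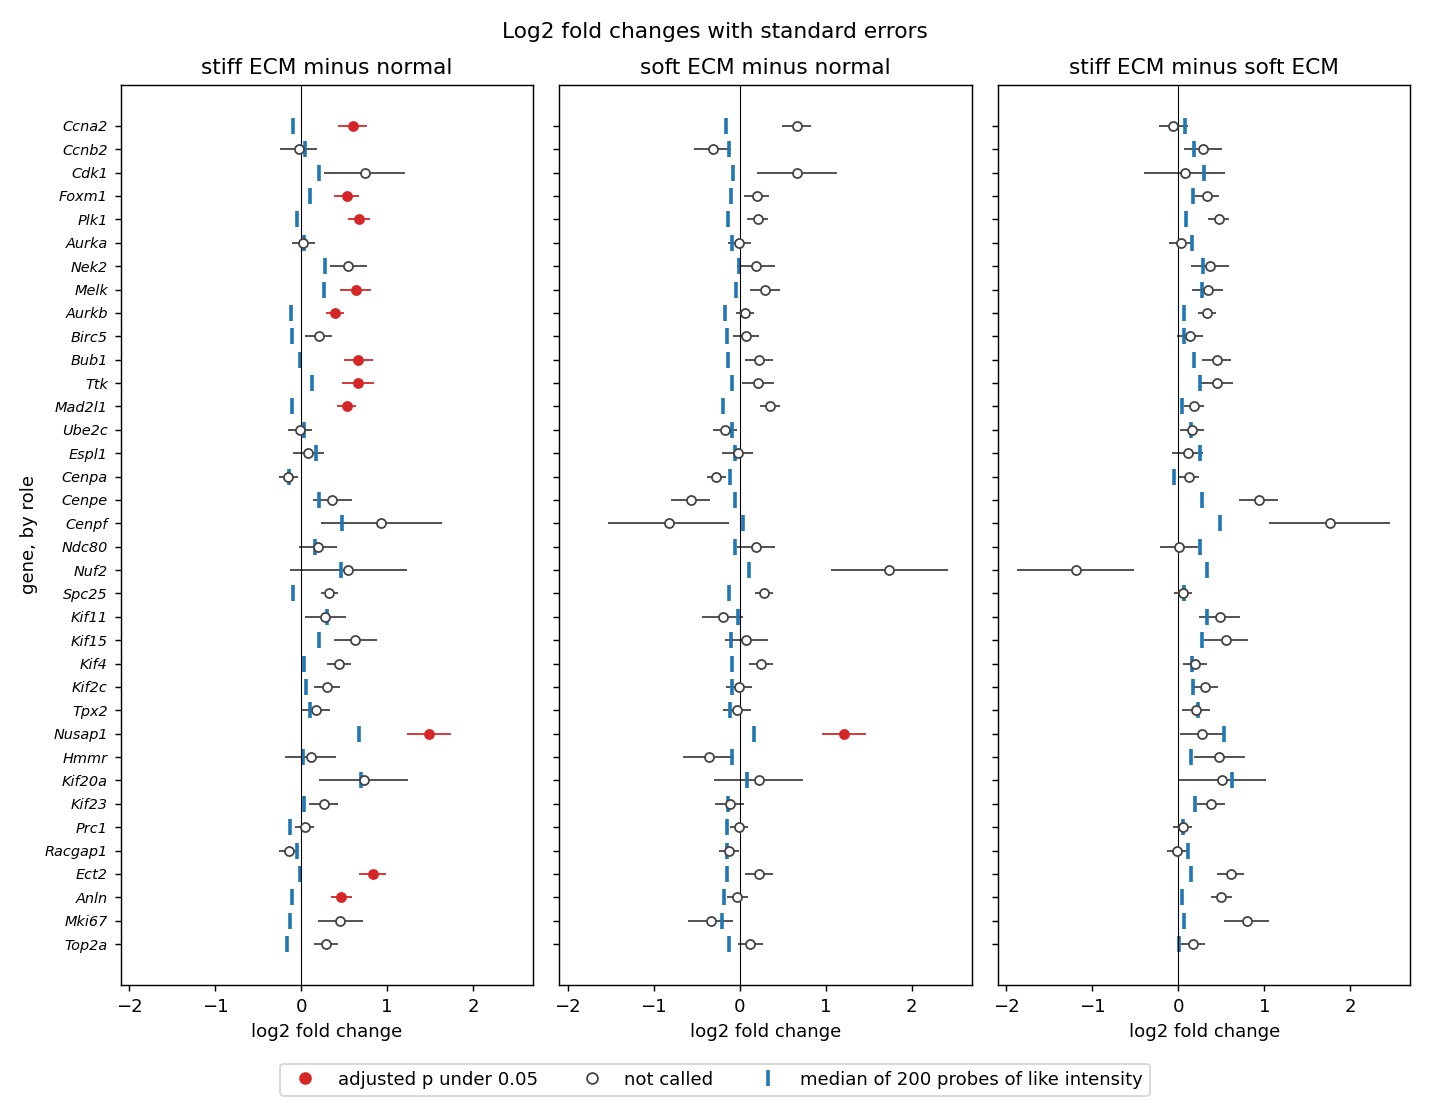
Log2 fold change (horizontal axis) with its standard error for the 36 genes (rows, by role) in the 3 comparisons (panels), with filled red circles for an adjusted p under 0.05. Blue ticks mark the median change of the 200 probes of like intensity. The panel against normal holds 11 red circles for the stiff ECM, that for the soft ECM holds 1 (Nusap1) and that of stiff minus soft holds 0.

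The comparison of the soft ECM with the normal samples uses the same 3 normal samples, so its values stand beside those of the stiff ECM and are not independent of them. Over all probes 0.493% were called higher and 3.21% lower, 3.7% in all. Among the 36 genes 1 was called higher (Nusap1, 2.78%) and 0 lower. At an unadjusted p under 0.05, 5 genes were higher (4.6% of all probes) and 2 lower (15.3% of all probes, 19.9% in either direction). The groups did not overlap for 4 genes that were higher on soft ECM (Ccna2, Mad2l1, Spc25 and Nusap1, against 5.26% of all probes) and for 2 that were lower (Cenpa and Cenpe, against 18.3%). The median log2 change of the 36 genes was 0.07 while that of all probes was -0.09, 20 genes changed by more than 0 (55.6%, against 38.3% of all probes), and 28 genes lay above the probes of like intensity. Nuf2, the partner of Ndc80, had the largest fold change here. It read 12.4, 10.1 and 52.8 in the normal samples, 68.2, 48.9 and 74.5 on soft ECM and 76.8, 16.8 and 16.0 on stiff ECM. The soft samples overlapped normal 3, and the change of 1.74 ± 0.68 was not called (limma adjusted p = 0.187). The 9 values of Nuf2 and of Cenpf below are given because these genes exceeded a log2 change of 1 at an unadjusted p under 0.05, and were chosen after their values were seen. The call of Nusap1 ended without normal 2 and without soft ECM 1, 2 or 3, where 0 genes were called, and Ccna2 joined it without normal 3 (2 genes). Over all probes 123 were called higher with all samples. That number was 21 without normal 2, 32, 69 and 31 without soft ECM 1, 2 and 3, and 247 without normal 3.

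The comparison of the stiff with the soft ECM is the one of gel stiffness. Over all probes 1.35% were called higher on stiff ECM and 0.417% lower, 1.77% in all. Among the 36 mitosis genes 0 were called by limma, and 0 by the methods' t-test after adjustment. At an unadjusted p under 0.05, 11 genes were higher by limma (30.6%, against 17.5% of all probes) and 0 lower (4.12%, 21.6% in either direction). By the methods' t-test 10 passed, but the share of all probes for that test is not given here, so this count has no background. The 2 groups did not overlap for 19 genes, each higher on stiff ECM (52.8%, against 31.7% of all probes and 34.7% of the probes of like intensity), and for 0 genes in the other direction (6.39% of all probes). The log2 change was above 0 for 33 genes, against 70.6% of all probes. Its median was 0.30, that of all probes 0.18, and the genes lay 0.12 above the probes of like intensity (24 of 36 above). Other scalings moved that median to 0.10 (quantile), 0.05 (centring of each sample) and 0.11 (loess), and the median of all probes to 0.00, -0.06 and 0.01. Without normal 1 the count called was 5 (Plk1, Aurkb, Cenpe, Ect2 and Anln), and without normal 3 it was 1 (Anln), although neither sample belongs to the comparison. Over all probes 2075 were called higher without normal 1 and 638 without normal 3, against 337 with all samples.

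At the threshold the methods give for the arrays (a log2 change of at least 1 at an unadjusted p under 0.05, here with limma's p), 1 of the 36 genes passed for stiff against soft (Cenpf, 3.04% of all probes), 1 for stiff against normal (Nusap1, 5.58%) and 2 for soft against normal (Nuf2 and Nusap1, 2.35%). The genes nearest to a call after adjustment were Anln, Cenpe, Ect2 and Plk1. Anln, with the values above, was 0.50 ± 0.12 higher on the stiff than on soft ECM (limma adjusted p = 0.0624, 0.0049 to 0.23 over the alternatives). Ect2 was 0.61 ± 0.16 higher (limma adjusted p = 0.0713) and Plk1 0.47 ± 0.12 higher (limma adjusted p = 0.0761). Cenpe, the kinesin that carries chromosomes to the metaphase plate, read 128, 112 and 153 in the normal samples, 61.1, 104 and 106 on soft ECM and 183, 147 and 173 on stiff ECM. The soft samples lay below both other groups, and soft ECM 1 was far the lowest. The log2 difference between stiff and soft was 0.93 ± 0.23 (limma adjusted p = 0.0625, 0.012 to 0.20 over the alternatives). Without soft ECM 1 it was 0.67 (limma adjusted p = 0.150). The Cenpe probe lay below the olfactory level, with 77.8% of the olfactory receptor probes dimmer. Against normal, soft ECM differed by -0.57 ± 0.23 (limma adjusted p = 0.195), and stiff ECM by 0.36 ± 0.23 (limma adjusted p = 0.310).

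Mki67, the Ki-67 antigen that coats mitotic chromosomes and marks cycling cells, read 718, 779 and 1098 in the normal samples, 414, 906 and 808 on soft ECM and 1248, 1070.2 and 1182 on stiff ECM. The stiff samples exceeded all soft samples, and normal 3 lay within the stiff range. The log2 difference between stiff and soft was 0.79 ± 0.26 (limma adjusted p = 0.128, 0.045 to 0.30 over the alternatives). Without soft ECM 1 it was 0.44 (limma adjusted p = 0.264). A second Mki67 probe read 333, 347 and 408, then 174, 411 and 268, then 508, 510.4 and 489.9 in normal, soft and stiff. Soft ECM 1 was again the lowest, and the difference was 0.91 without a call (limma adjusted p = 0.0800). Top2a, the topoisomerase that untangles sister chromatids, read 1291, 1539.8 and 1856, then 1504, 1915 and 1659, then 1889.7, 1778 and 2012. Its groups overlapped in every comparison. Cenpf, a large kinetochore protein, had the largest difference between stiff and soft, at 1.76 ± 0.70 on the log2 scale. It read 4.13, 8.30 and 41.2 in the normal samples, 6.01, 7.12 and 5.88 on soft ECM and 27.5, 12.9 and 27.8 on stiff ECM. Stiff and soft did not overlap, but only 26.7% of olfactory receptor probes were dimmer and the difference was not called (limma adjusted p = 0.187). Hmmr, Kif11 and Kif15 also had their lowest value of all 9 samples in soft ECM 1, at 206, 57.1 and 100.2.

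Other genes of the cell cycle were counted in lists that share no gene with the 39. Of 68 further mitosis genes, 17 were called higher on stiff ECM than in the normal samples (25%, against 4.8% of all probes) and 2 lower (Cep55 and Zwint, against 5.14% of all probes). The smallest p-values were those of Cenpk, a centromere protein (log2 change 0.91, limma adjusted p = 0.00247), Trip13, which resets Mad2 in the checkpoint (0.93, limma adjusted p = 0.00291), and Fbxo5, an inhibitor of the anaphase-promoting complex (0.73, limma adjusted p = 0.00593). On the soft ECM 4 of them were called higher than normal (5.88%, against 0.493% of all probes) and 1 lower (3.21% of all probes). Between stiff and soft 2 were called, both higher on stiff ECM (2.94%, against 1.35% of all probes). These were Kif18a, a kinesin that trims kinetochore microtubules (0.77, limma adjusted p = 0.0380), and Psrc1 (0.59, limma adjusted p = 0.0479).

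Replication and licensing genes act before mitosis. Of 39 measured, 19 were called higher on stiff ECM than in the normal samples (48.7%, against 4.8% of all probes) and 0 lower (5.14% of all probes), and 8 were called higher on soft ECM (20.5%, against 0.493% of all probes). Between stiff and soft 0 were called (1.35% of all probes were called higher). Mcm3, of the replicative helicase, averaged 732 in the normal samples, 1436 on soft ECM and 1776 on stiff ECM (log2 change to stiff 1.28, limma adjusted p = 0.00118, and to soft 0.97, limma adjusted p = 0.00579). Prim1, the primase subunit, averaged 452, 855 and 890.1 (to stiff 0.98, limma adjusted p = 0.00493, and to soft 0.92, limma adjusted p = 0.00990). Gmnn (geminin), which blocks licensing after replication starts, changed by 0.80 to stiff (limma adjusted p = 0.00301) and by 0.43 to soft (limma adjusted p = 0.0458).

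Of 8 genes of G1 cyclins and their kinases, only Ccne2 (cyclin E2) was called. It was higher on stiff ECM than in the normal samples (1.16, limma adjusted p = 0.00480, against 4.8% of all probes called higher). It was also higher than on soft ECM (0.76, limma adjusted p = 0.0465, against 1.35% of all probes called higher). Of 6 inhibitors of cyclin-dependent kinases, Cdkn2a was called higher against normal (0.95, limma adjusted p = 0.0232, against 4.8% of all probes called higher). Ccne2 and Cdkn2a lay below the olfactory level. Cdkn1a (p21) was called lower (-0.33, limma adjusted p = 0.0427), and so was Cdkn2d (-0.38, limma adjusted p = 0.0494), against 5.14% of all probes called lower. Of 20 E2F, DREAM and MuvB genes, 4 were called higher against normal (E2f5, E2f7, Lin9 and Rbl1, 20%, against 4.8% of all probes) and 0 lower (5.14% of all probes). E2f7, a repressor of S-phase genes, changed by 0.71 (limma adjusted p = 0.0148) and Lin9, a core subunit of MuvB, by 0.47 (limma adjusted p = 0.0333).

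Promoters were read because this family is known for shared elements and 11 of its members were called together. RefSeq windows of 300 bases (250 before and 50 after a start site, build GRCm38.p6) matched 34 of the 39 genes in 36 windows. The CHR (TTTGAA) and the CCAAT box (CCAAT, bound by NF-Y) were searched on both strands. A CHR stood in 27 of 36 windows (75%), against 17.9% of 32851 windows of all genes. A CCAAT box stood in 27 (75%), against 37.4%, and both motifs in 23 (63.9%), against 6.95%. No CHR overlapped a CCAAT box in the windows of these genes. Of the 11 called genes 8 had a window, and their 9 windows held a CHR in 5, a CCAAT box in 5 and both in 4. The 27 windows of the genes not called held a CHR in 22, a CCAAT box in 22 and both in 19. A match is a run of letters and not a measured site. The 150 bases before the start site are shown for the 4 called genes with the smallest p, and then for 3 genes without a call, which were picked for carrying both motifs whole in this stretch (the brightest such genes, each gene read from its most upstream start). The second set shows what the motifs look like, and its difference from the first in motifs and calls was fixed by this choice. Capitals mark CHR and CCAAT letters on either strand.
Nusap1, chr2:119618148-119618297, plus strand: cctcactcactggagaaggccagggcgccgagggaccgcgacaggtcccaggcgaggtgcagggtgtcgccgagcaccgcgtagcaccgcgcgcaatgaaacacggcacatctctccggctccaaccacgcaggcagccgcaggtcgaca
Plk1, chr7:122159285-122159434, plus strand: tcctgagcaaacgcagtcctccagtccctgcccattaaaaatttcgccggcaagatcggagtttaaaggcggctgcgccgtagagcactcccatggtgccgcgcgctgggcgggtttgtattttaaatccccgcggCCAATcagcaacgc
Ect2, chr3:27153879-27154028, minus strand: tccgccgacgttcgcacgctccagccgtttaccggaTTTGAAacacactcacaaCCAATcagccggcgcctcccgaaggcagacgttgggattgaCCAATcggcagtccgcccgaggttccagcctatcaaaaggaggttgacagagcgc
Mad2l1, chr6:66535071-66535220, plus strand: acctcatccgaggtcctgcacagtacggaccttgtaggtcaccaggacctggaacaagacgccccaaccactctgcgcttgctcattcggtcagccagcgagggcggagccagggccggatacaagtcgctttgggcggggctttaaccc
Top2a, chr11:99024190-99024339, minus strand: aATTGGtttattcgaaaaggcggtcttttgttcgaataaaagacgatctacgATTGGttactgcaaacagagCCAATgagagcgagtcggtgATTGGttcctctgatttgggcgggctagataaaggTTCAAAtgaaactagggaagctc
Mki67, chr7:135716380-135716529, minus strand: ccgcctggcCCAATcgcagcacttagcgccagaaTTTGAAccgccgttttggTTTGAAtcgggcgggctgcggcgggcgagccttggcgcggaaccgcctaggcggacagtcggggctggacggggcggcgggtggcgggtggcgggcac
Ube2c, chr2:164769779-164769928, plus strand: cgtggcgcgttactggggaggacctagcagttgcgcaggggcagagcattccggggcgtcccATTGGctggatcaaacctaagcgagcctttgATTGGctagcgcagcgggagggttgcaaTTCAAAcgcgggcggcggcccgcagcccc

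In these stretches Nusap1 and Mad2l1 held neither motif, Plk1 held 1 CCAAT box, and Ect2 held 1 CHR and 2 CCAAT boxes. Top2a held 1 CHR and 4 CCAAT boxes, Mki67 2 CHRs and 1 CCAAT box, and Ube2c 1 CHR and 2 CCAAT boxes.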

How the data were processed

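The authors hybridised RNA of each of the 9 samples to 2 single-colour Cy5 arrays, and deposited 1 linear intensity per probe and sample, averaged over the arrays and median-scaled in Rosetta Resolver per the methods. Their error-weighted model was not run. Here log2 intensities of the 24942 of 26423 probes above 0 in all samples entered limma 3.58.1 (R 4.3.3) with 3 group means, an intensity trend and Benjamini-Hochberg adjustment over all probes (threshold 0.05). Probes were named through the platform annotation (21876 with 1 symbol). Values of 9 samples were given for called genes, for the gene of smallest p for stiff minus soft in each role, and for Mki67, Top2a, Cdk1, Plk1, Aurkb and Foxm1. Those of Spc25, which came nearest to a call among the kinetochore genes, were chosen after the values were seen, like those of Nuf2 and Cenpf. Of the other lists at most 3 called genes were named for each comparison by p, beside those completing a small count. The genes and lists were chosen with earlier results of these data known. Alternatives were quantile, centring and loess scaling, other filters, offset, floor, trend, samples fitted, sample weights, the methods' t-test (named there for comparisons of 2 groups in general, not for the arrays), a replicate block and leaving out each sample. The tests were checked on simulated data. Figures used matplotlib 3.10.9. The 3 samples per group limit the precision.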

Additional observations from a re-analysis of the deposited data

How the results depend on the processing

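The direction of all 11 calls of stiff ECM against normal held under every alternative, but their number did not. Against 11, it was 5 without the intensity trend, 4 with 2 groups fitted alone, 0 with sample weights, 0 by the methods' t-test after adjustment (14 unadjusted) and 1 to 14 when a sample was left out. Over all probes 1197 were called higher as reported, and in the same order 642, 426, 66, 4 and 254 to 3138. Plk1 and Ect2 lost their call only with sample weights, without stiff ECM 2 and by the methods' t-test. For soft ECM against normal, in place of 1, there were 2 calls with quantile scaling (Ccna2 and Mad2l1), 3 with centring and 3 with loess (Nusap1 in addition), 1 in the brighter part of the probes (Ccna2, since Nusap1 was then not tested), 0 by the methods' t-test (4 unadjusted), with 2 groups alone or with sample weights, and 0 to 2 when a sample was left out. Over all probes 123 were called higher as reported, and in the same order 542, 333, 606, 121, 0, 76, 4 and 21 to 247. For stiff against soft ECM, in place of 0, there were 2 in the brighter part of the probes, 5 with 2 groups alone, 13 with sample weights and 0 to 5 when a sample was left out. Over all probes 337 were called higher as reported, and in the same order 552, 2085, 5556 and 0 to 2075. The sample weights had not converged. The unadjusted counts of the methods' t-test (14 and 4) have no share of all probes beside them here, so they have no background.

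Same-numbered samples had correlations of their deviations of -0.22 to 0.13, and samples of different number had -0.23 to 0.19. The labels do not say whether equal numbers pair the samples. With 3 samples per group these correlations cannot decide it. A replicate block gave 4 calls for stiff ECM against normal, 0 for soft ECM against normal and 0 for stiff against soft ECM. Over all probes it called 816, 46 and 102 higher in the same order, against 1197, 123 and 337 as reported. The median log2 change from soft to stiff ECM, 0.30 as reported, was 0.10 with quantile scaling, 0.050 with centring and 0.11 with loess. The median from normal to stiff ECM against probes of like intensity was 0.21 with an offset, against 0.34. Among genes that were never called for stiff minus soft, Ube2c turned to -0.089 and Top2a to -0.080 with centring. Cdk1 turned to -0.22 with quantile scaling, -0.17 with centring and -0.26 with loess, and ranged from -0.076 to 0.18 when a sample was left out. Over all probes, the calls of stiff against soft ECM were 337 higher and 104 lower, but 469 and 700 with quantile scaling, 206 and 1274 with centring, and 421 and 565 with loess. For stiff ECM against normal they were 1197 and 1281, and 1725 and 3836 with centring. For soft ECM against normal they were 123 and 801, but 542 and 538, 333 and 331, and 606 and 617 under those 3 scalings. Without stiff ECM 2 the first of these comparisons had 0 higher and 0 lower, and with sample weights 5556 and 1066, while the others had 66 and 136 (stiff ECM) and 4 and 15 (soft ECM) with sample weights. The cause of these changes was not tested. Probes as dim as Nusap1, Cdk1, Cenpf and Nuf2 lay within the range of silent genes, which limits what their folds can show.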
